A study of Rattus norvegicus with 12 samples.

Results

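Of the 12467 regions of retinal RNA that carried an N6-methyladenosine (m6A) peak in at least 1 of 6 rats, 1674 were narrow and had a single summit in every animal. They were chosen by measured values: exactly 1 called region in each of the 6 peak lists, with 1 summit and a length under 300 bases in each. They made up 13.4% of the merged (union) regions (Wilson 95% interval 12.8 to 14.0%), 23.6% of the 7098 found in all 6 lists (22.6 to 24.6%) and 52.6% of the 3185 that had 1 single-summit region in each list at any length (50.8 to 54.3%). These intervals cover counting error only. Presence, length and number of summits are therefore given as a description. Summit position, height of the pileup and distance to other regions were not used by the rule, but position and height are not free of it. The length limit bounds how far summits can lie apart. Across the narrow regions, log2 pileup and the largest length over the lists had Spearman's rho = 0.181.

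The libraries came from retina of male Sprague-Dawley rats. The control group, labelled WT, had 3 animals that received citrate buffer intraperitoneally on 5 days. The diabetic group had 3 animals that received streptozotocin, a compound toxic to the insulin-producing beta cells, at 60 mg/kg by the same route on 5 days after a 12 h fast, and counted as diabetic above a fasting blood glucose of 16.7 mmol/L measured 1 week after the last dose. RNA fragments of about 100 nt were pulled down with an anti-m6A antibody (IP) and compared with the input RNA of the same animal. The model is chemically induced. Neither the age of the rats nor the time at which the retinas were taken is given in the labels.

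m6A is placed on adenosines of nuclear RNA by the METTL3-METTL14 methyltransferase complex, mostly within a short consensus motif, and it is frequent near stop codons and in long internal exons of mRNA. Reader proteins of the YTH family bind it and alter splicing, translation and decay of the RNA, and the demethylases FTO and ALKBH5 can remove it. Antibody enrichment of fragments does not resolve single bases: fragments that overlap one methylated adenosine pile up around it, and neighbouring sites merge into a broad or many-peaked region. The peak lists name no genes and no strand, and their genome build is not given in the sources used here. Positions below are those of the lists, without gene, exon or UTR, and the labelled tissue could not be checked against marker genes.

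The smaller of the IP and input libraries of an animal, to which the peak caller scaled the other, held 8175227 to 12354616 reads, and the lists held 9082 to 10552 regions. Heights are given as scaled pileups: the number of extended IP fragments over the summit, after the caller's scaling, per 1000000 reads of the smaller library. The narrow single-summit regions were 18.4, 18.4 and 16.5% of the lists of control replicates 1, 2 and 3 and 17.2, 15.9 and 16.7% of the lists of diabetic replicates 1, 2 and 3. Their median length was 185, 181 and 217 bases in the controls and 204, 221 and 206 bases in the diabetic animals, so control replicate 3 lay among the diabetic lists. The shortest calls, 118 to 125 bases, equal the length to which the caller extended reads in each list. In 10 of the 1674 regions every list held only such a minimal call, and in 108 (6.45%) at least 1 list did.

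In most narrow regions the summits of the 6 retinas fell within 50 bases of each other. The range of the 6 summit positions, from the lowest to the highest coordinate, had a median of 19 bases (quartiles 12 and 30), against a read extension of 118 to 125 bases. It was at most 10 bases in 310 regions (18.5%), at most 20 bases in 915 (54.7%) and over 50 bases in 157 (9.38%). Leaving the most distant animal of each region aside, the closest 5 summits spanned a median of 12 bases, and 10 bases or fewer in 754 regions. Of the 157 regions with a range over 50 bases, the closest 5 summits lay within 20 bases in 16 and still spanned over 50 bases in 40.

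Longer regions with 1 summit in each list spread a little more. In the 1511 single-summit regions that reached 300 bases in at least 1 list, the median range was 21 bases (quartiles 14 and 35), and 12.6% exceeded 50 bases. The length limit itself bounds how far summits can lie apart, so this difference is a description without a test. The 122 members whose longest call was under the limit by 10 bases or less had a median range of 24 bases and a median scaled pileup of 11.5. The 133 single-summit regions whose longest call lay at the limit or less than 10 bases over it had 26 bases and 12.2. Just inside lay chr10:91160364-91160669, with summits at bases 139, 148 and 157 of the region in the controls and 149, 148 and 149 in the diabetic group, and chr20:28075421-28075719, whose summit ranged over 9 bases. Just outside lay chr14:108143797-108144109 and chr1:187796535-187796838, with summit ranges of 11 bases each. Each of these reached 300 bases in 1 list only, that of control replicate 1 in the first and of control replicate 3 in the second.

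**Figure D1:**
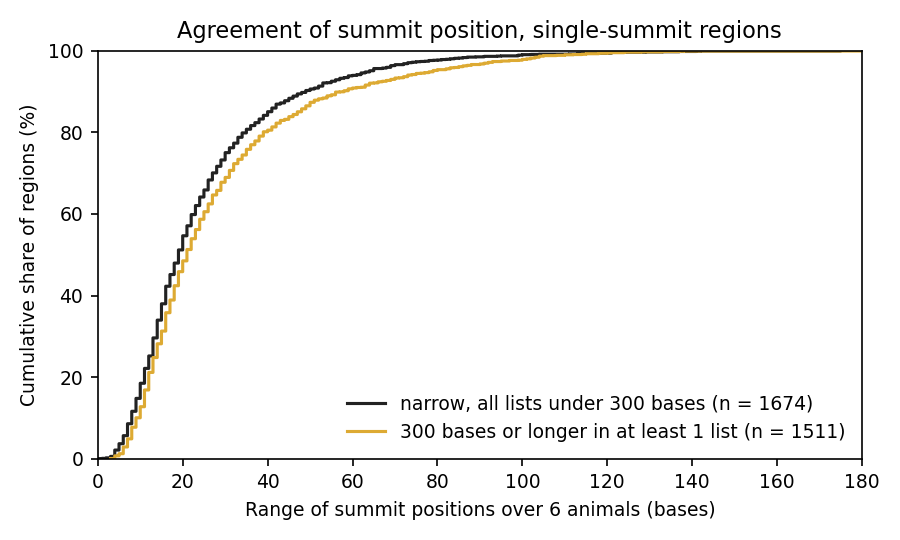
Cumulative share of single-summit regions (y axis, percent) against the range of summit positions over the 6 animals (x axis, bases), for the 1674 narrow regions (black) and the 1511 longer ones (yellow). The black curve passes 54.7% at 20 bases and 90.6% at 50 bases, and the yellow curve lies to its right, at 48.5% and 87.4%.

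The 5 regions with the tightest summits were picked by their summit range out of 1674, so they show 1 extreme of the agreement. At chr10:70753193-70753317 the summit lay at base 117 of the region in all 6 animals. This region was a minimal call in every list, with lengths of 119, 120 and 125 bases in the controls and 122, 118 and 121 bases in the diabetic group, and its pileups stood between the 0.524th and the 13.2th percentile of their lists. At chr16:28373758-28373938 the summits lay at bases 108, 109 and 109 in the controls and 108, 108 and 109 in the diabetic group, with a pileup at or above the 75.9th percentile of each list. Next came chr3:124518257-124518401 with bases 65, 65 and 66 in the controls and 64, 65 and 64 in the diabetic group. Regions chrX:123720692-123720912 and chr3:147862586-147862759 had ranges of 2 and 3 bases. One edge was fixed too: the end lay at the same base in all 6 lists for the regions on chromosomes 10, 16 and X, the start did so for the first on chromosome 3, and the ends of the second on chromosome 3 lay within 2 bases.

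At the other extreme, the summit could sit at either side of a region. In chr14:82269634-82269925 it lay at bases 258, 90 and 154 in the controls and 83, 101 and 92 in the diabetic group, a range of 175 bases. In chr3:11443105-11443386 it lay at bases 41, 138 and 180 in the controls and 164, 182 and 131 in the diabetic group. The summits of chr7:11325273-11325531 lay at bases 69, 183 and 170 and at 202, 155 and 152. All 3 had a pileup near the bottom of the list in at least 1 animal, at the 0.420th, 1.93th and 1.87th percentile. Of the 5 widest, the one with a pileup at or above the 62.4th percentile in every list was chr9:121961974-121962256, with scaled pileups of 13.8 to 23.8 and summits at bases 126, 252 and 215 in the controls and 115, 213 and 117 in the diabetic group. These fall into 2 clusters of 3 summits, each with animals of both groups. There the local input background was 2.14 to 5.75 times the genome-wide floor.

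Control replicate 1 placed its summits farther from the others than any other animal did. The median distance of a summit to the median of the other 5 animals was 7, 5 and 6 bases in control replicates 1, 2 and 3 and 5 bases in each diabetic animal. The share of regions within 10 bases was 64.0, 75.4 and 72.2% in the controls and 76.6, 74.9 and 77.3% in the diabetic group. Of the 1514 regions in which 1 animal alone was farthest from the rest, that animal was control replicate 1 in 484 (32.0%), control replicate 3 in 285 (18.8%) and each of the others in 174 to 207. Sequencing after the pull-down was also shallowest in control replicate 1 (8661200 reads), with control replicate 3 next (9030946 reads). Every other animal had between 12675809 and 16114422 such reads. The part of this depth in the summit distances was not tested. The median distance averaged 6 ± 1 bases over the controls and 5 ± 0 over the diabetic group (SD, 3 each). The difference of -1 base was within the spread, since control replicate 2 equalled the diabetic animals (exact permutation p = 0.4, two-sided, where 3 against 3 cannot go below 0.1). Signed offsets averaged -0.459 to 0.572 bases in the 6 animals, so no animal was displaced as a whole toward higher or lower coordinates by a full base.

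Pairs of animals gave the same picture. Summits of the 3 diabetic pairs lay 8.65 to 10.2 bases apart on average over the 1674 regions, those of the 3 control pairs 10.7 to 12.9 bases and those of the 9 pairs between groups 9.04 to 13.3 bases. The 5 pairs with control replicate 1 were the 5 with the largest mean distance, from 12.8 to 13.3 bases. Without that animal, the remaining control pair stood at 10.7 bases and the 6 pairs between groups at 9.04 to 11.1. The pairs share animals, and their order was not tested.

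Taller regions had tighter summits in every animal. In the lowest quartile group of the narrow regions by pileup (median scaled pileup 6.86) the median summit range was 31 bases, and it was 22, 16 and 13 bases in the next 3 groups, the highest having a median of 17.7. The share with a range over 50 bases was 24.6% in the lowest quartile group and 1.91% in the highest, and 103 of the 157 such regions (65.6%) were in the lowest quartile group. From the lowest to the highest quartile group the median offset went from 11 to 5 bases in control replicate 1, from 9 to 3 in control replicate 2 and from 9 to 4 in control replicate 3. In diabetic replicates 1, 2 and 3 it went from 9 to 4, 9 to 3 and 8 to 3 bases. Across the 1674 regions, summit range and log2 pileup had Pearson's r = -0.410 and Spearman's rho = -0.501, and summit range and longest call had r = 0.236 and rho = 0.242. These correlations are across regions of the same 6 libraries, which are not independent replicates.

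**Figure D2:**
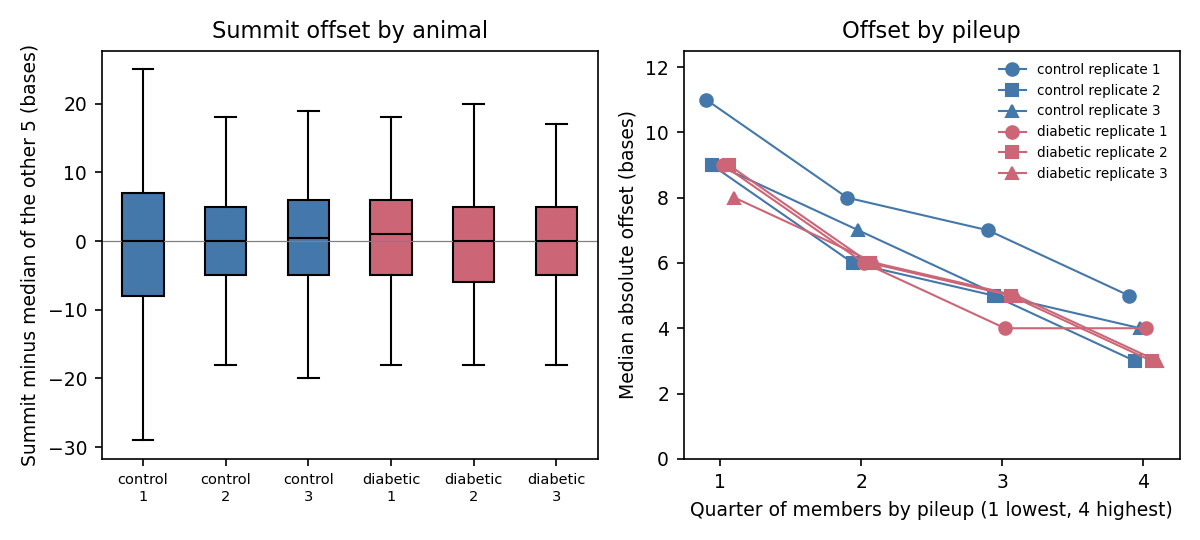
Left, signed distance of each animal's summit from the median of the other 5 (y axis, bases) over the 1674 narrow regions, with boxes for quartiles and whiskers for the 5th and 95th percentiles, controls blue and diabetic animals red. Right, median absolute distance (y axis, bases) by quartile group of regions ranked by pileup (x axis, animals set slightly apart). Control replicate 1 has the widest box, and its line starts at 11 bases and ends at 5.

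Summits stood at the middle of the narrow calls. The median position along the call was 49.5 to 49.8% of its length in the 6 lists, with quartiles from 44.6 to 54.9%. The edges moved more than the summits: starts ranged over a median of 34 bases and ends over 35 bases, against 19 for the summit. In 97 regions (5.79%), however, at least 1 edge stayed within 5 bases in all 6 lists. It was the start in 57, the end in 41 and both in 1. The start was the same base in all 6 lists in 31 regions and the end in 19. Regions with such a fixed edge had a median scaled pileup of 17.4 and a median summit range of 10 bases, against 9.58 and 20 bases in the others. Among the longer single-summit regions 7.94% had a fixed edge.

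Pileups of the narrow regions lay below the middle of each list. The median scaled pileup over them was 8.89, 9.06 and 11.3 in control replicates 1, 2 and 3 and 10.3, 10.2 and 9.47 in diabetic replicates 1, 2 and 3. Control replicate 3 was the highest and the other controls the lowest. The same regions stood at the 39.2th, 39.0th and 47.8th percentile of the control lists and at the 44.1th, 48.2th and 44.3th of the diabetic lists (medians), and the authors' fold enrichment over background had medians of 4.19 to 5.01 within the lists, against 5.78 to 7.03 for all regions found in every list. Length was limited by the rule, and its part in this low rank was not tested.

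Between groups the level of the narrow regions did not differ by more than the spread of the animals. The means of the library medians of scaled pileup were 9.75 ± 1.34 in the controls and 10.01 ± 0.471 in the diabetic group (SD over 3 animals each, n = 3), a difference of 0.261 (exact two-sided permutation p = 0.8, smallest possible 0.1). Its sign changed when either of 2 controls was left out: it was -0.191 without control replicate 1, -0.0394 without control replicate 2 and 0.974 without control replicate 3. Relative to the median of all regions found in all 6 lists, it was -0.0103 (0.703 ± 0.00799 in the controls and 0.693 ± 0.00981 in the diabetic group, exact permutation p = 0.3).

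**Figure D3:**
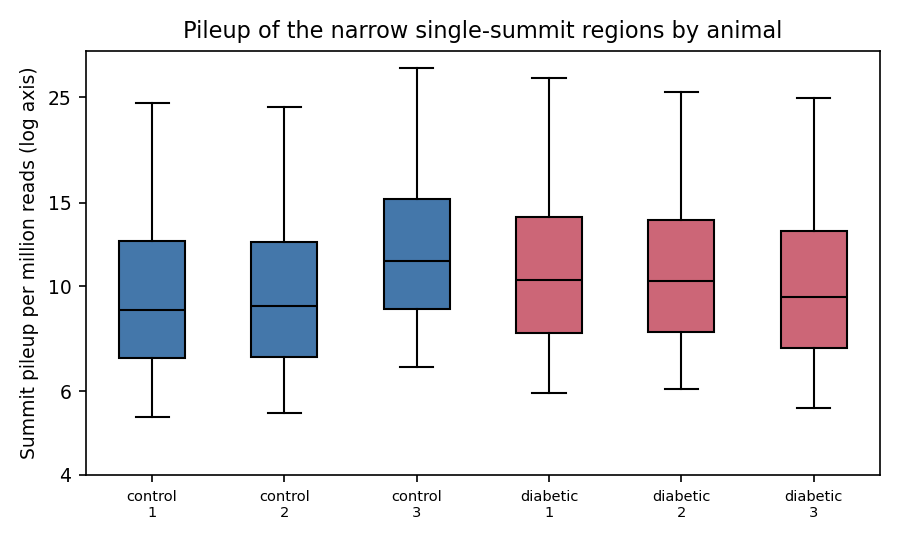
Scaled pileup at the summit (y axis, log scale, per 1000000 reads of the smaller library) of the 1674 narrow regions in each animal, with boxes for quartiles and whiskers for the 5th and 95th percentiles, controls blue and diabetic animals red. Medians run from 8.89 in control replicate 1 to 11.3 in control replicate 3, and the diabetic medians of 9.47 to 10.3 lie between them.

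Region by region, 1 narrow region differed between diabetic and control retinas. It was chr10:65607887-65608061, 175 bases long, where the pileup was lower in the diabetic animals. Scaled pileups there were 18.5, 22.0 and 24.8 in the controls and 13.7, 11.2 and 9.23 in the diabetic group, so the highest diabetic animal lay below the lowest control. On the log2 scale, with each library centred on its median over all regions in the 6 lists, the difference was -1.01 (SE 0.154), to 0.495 of the control level (limma over 7098 regions, Benjamini-Hochberg adjusted p = 0.0154). The summits lay within 7 bases, at bases 89, 86 and 86 in the controls and 82, 84 and 83 in the diabetic group, which do not overlap (limma adjusted p = 0.849 for the shift of -4.0 bases). The input background was 2.02, 2.34 and 2.53 times the genome-wide floor in the controls and 2.32, 1.61 and 1.66 times in the diabetic group, and the groups overlap. Whether the amount of this RNA differed was not tested. Without control replicate 2, diabetic replicate 2 or diabetic replicate 3 the adjusted p was 0.0764, 0.0815 and 0.147, with differences of -0.948, -0.997 and -0.894.

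The call of 1 lower and 0 higher narrow regions compares with a background, over all 7098 regions tested, of 0.0986% called lower (7 regions) and 0.169% called higher (12 regions). At an unadjusted p under 0.05 there were 215 narrow regions (12.8%), near the background of 14.4%. The median difference over the narrow regions was -0.0266 on the log2 scale, beside 0.00186 over all regions tested, and 90% of them lay between -0.434 and 0.343. The interval of a single region reached a median of 0.349 to either side. On the log2 scale of scaled pileup, without centring, 5 of the 1674 narrow regions were called (0.299%), beside 36 of all 7098 (0.507%). They were 2 lower, beside a background of 0.0845%, and 3 higher, beside 0.423%: chr10:65607887-65608061 again, chr3:163948431-163948566 (difference -0.806, adjusted p = 0.0439), chr2:116199713-116199921 (0.817, 0.0328), chr9:105553538-105553814 (0.867, 0.0133) and chr19:19437306-19437524 (0.820, 0.0446).

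In 109 narrow regions (6.51%) all 3 diabetic pileups lay above all 3 control pileups, and in 196 (11.7%) all lay below. The background over all regions was 10% above and 10.5% below. This split followed the scale: without centring it was 96 above (5.73%) and 79 below (4.72%), beside 7.73% and 3.89% of all regions. It also moved with the length limit: above and below came to 55 and 120 under a limit of 250 bases, 165 and 244 under 350 bases, and 275 and 315 over all single-summit regions. The direction over the members is therefore not independent of how they were chosen, and nothing is read from it. In bulk retina, an IP pileup rises with the amount of the RNA as well as with its methylation, and fewer cells of a type cannot be told apart from less RNA per cell.

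**Figure D4:**
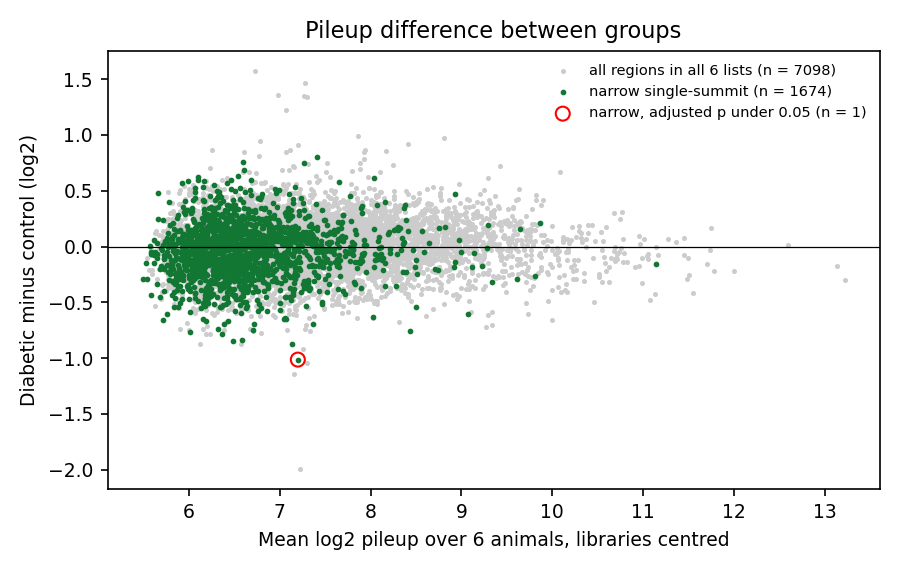
Difference of mean log2 pileup, diabetic minus control (y axis), against mean log2 pileup over the 6 animals (x axis), libraries centred, for the 7098 regions in all 6 lists (grey) and the 1674 narrow single-summit regions (green). The red circle marks the 1 narrow region with an adjusted p under 0.05, at -1.01.

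Among narrow regions whose groups did not overlap, the 4 largest log2 differences ran from 0.62 to 0.75 upward and from -0.84 to -1.01 downward. The largest positive difference was at chr2:116199713-116199921, with scaled pileups of 12.9, 13.5 and 10.7 in the controls and 24.0, 21.0 and 20.4 in the diabetic group (log2 difference 0.75, SE 0.178, limma adjusted p = 0.127). At chr15:67553776-67554038 the values were 5.66, 9.43 and 9.52 against 14.1, 12.9 and 13.3 (0.68, adjusted p = 0.141). Control replicate 1 had the lowest value there and a call of 122 bases, against 192 to 263 bases in the other animals. At chr17:77287246-77287528 pileups were 5.77, 8.38 and 9.52 against 14.9, 11.6 and 11.4 (0.63, adjusted p = 0.152), and at chr14:39228653-39228917 they were 6.004, 5.59 and 5.54 against 10.7, 9.55 and 7.65 (0.62, adjusted p = 0.161). None of these 4 passed the test.

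In the other direction, after the called region, came chr3:163948431-163948566, with scaled pileups of 17.0, 23.8 and 18.9 in the controls and 8.81, 14.4 and 11.3 in the diabetic group (log2 difference -0.87, limma adjusted p = 0.127). Its summit was also displaced in 2 animals: it lay at bases 63, 64 and 65 in the controls and at base 66 in diabetic replicate 2, but at bases 118 and 104 in diabetic replicates 1 and 3, whose calls had the minimal lengths of 122 and 121 bases. Further along the same chromosome, chr3:163954264-163954553 had 11.3, 15.3 and 13.7 against 6.57, 7.74 and 9.31 (-0.84, adjusted p = 0.107). Neighbouring regions can lie on 1 transcript and are then not independent. At chr10:109633195-109633479 pileups were 10.9, 14.1 and 12.7 against 8.43, 7.12 and 6.39 (-0.85, adjusted p = 0.0652). In all 3 the background was the genome-wide floor in every list.

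**Figure D5:**
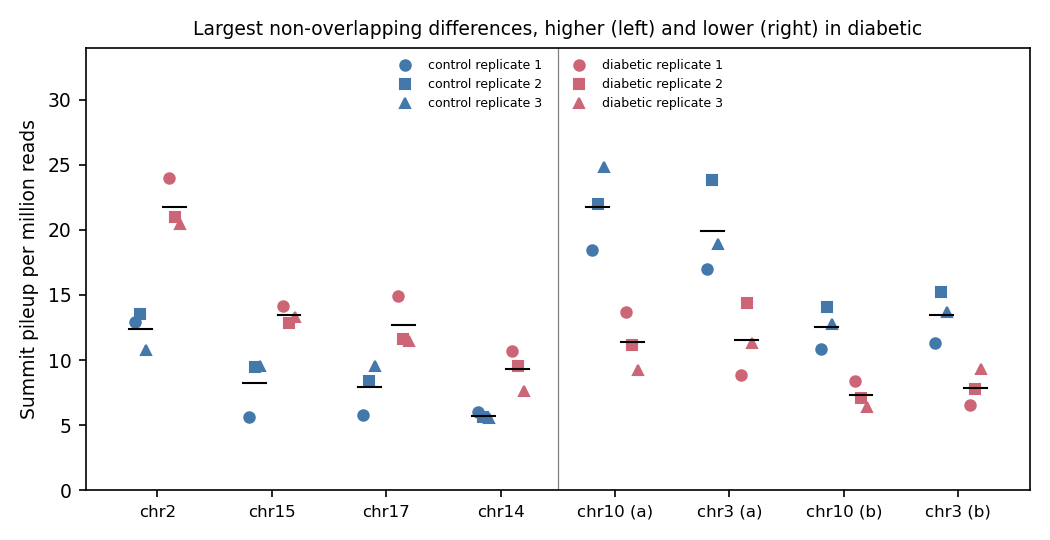
Scaled pileup at the summit (y axis, per 1000000 reads) in each animal for the 4 narrow regions with the largest increase (left of the line) and the 4 with the largest decrease (right) among those whose groups do not overlap after centring, named by chromosome. Points are animals, controls blue and diabetic animals red, and black bars are group means (n = 3 each). The values of chr10 (a), the called region, lie between 18.5 and 24.8 in the controls and between 9.23 and 13.7 in the diabetic group.

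Among the tallest narrow regions no difference between groups was called. The tallest, chr1:221154343-221154508, had scaled pileups of 258, 207 and 280 in the controls and 219, 239 and 238 in the diabetic group, with summits within 7 bases (log2 difference -0.155, limma adjusted p = 0.610). It stood on an input background 38.8 to 48.8 times the floor, and its fold enrichment was 2.45 to 3.21. The region chr8:48928144-48928377 was of the opposite kind, with a background at the floor (1.00 to 1.03 times) and fold enrichments of 31.4 to 58.4. Its scaled pileups were 66.3, 88.9 and 122 in the controls and 113, 95.8 and 120 in the diabetic group (0.215, adjusted p = 0.539). At chr10:56652655-56652944 values were 99.2, 96.0 and 112 against 89.2, 94.2 and 84.4, at chr1:142142231-142142517 they were 74.8, 73.4 and 87.3 against 90.7, 87.8 and 96.4, at chr2:157011307-157011446 they were 84.1, 79.6 and 107 against 78.7, 76.4 and 74.6, and at chr4:165607140-165607340 they were 55.5, 59.3 and 81.9 against 75.2, 61.9 and 64.5. None of these 6 passed the test, and their summit ranges were 4 to 15 bases. The groups did not overlap at chr10:56652655-56652944, chr1:142142231-142142517 and chr2:157011307-157011446 (limma adjusted p = 0.290, 0.552 and 0.226).

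At most narrow regions the input did not exceed the genome-wide background. In 1317 of the 1674 (78.7%) the background was the genome-wide floor, within 5%, in all 6 lists, beside 69.4% of the other 5424 regions found in every list. In 42 (2.51%) it was at least 2 times the floor in every list, beside 4.68%. Those 42 had a median scaled pileup of 32.8, a fold enrichment of 3.88 and a summit range of 15 bases. The 1317 had 9.24, 4.51 and 19 bases.

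Over the 1674 regions the log2 pileups of 2 animals correlated at r = 0.889 to 0.926 in the diabetic pairs, 0.864 to 0.884 in the control pairs and 0.830 to 0.888 between groups. The rank correlations were lower, with rho from 0.831 to 0.883, 0.800 to 0.832 and 0.742 to 0.832. The lowest value of both was that of control replicate 1 with diabetic replicate 1. These are correlations across regions of shared libraries, given as a description. The SD between animals of a group had a median of 0.184 log2 units in the controls and 0.162 in the diabetic group, beside 0.168 and 0.146 in the other regions found in every list.

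No summit shift between diabetic and control retinas was called. In limma over the 3185 single-summit regions, 0 narrow regions had an adjusted p under 0.05, toward higher or lower coordinates, beside a background of 0 (0%) in either direction, and the lowest adjusted p of a narrow region was 0.786. At an unadjusted p under 0.05 there were 93 narrow regions (5.56%), beside 6.25% of all 3185. In 84 (5.02%) the 3 diabetic summits all lay at higher coordinates than the control summits and in 89 (5.32%) at lower ones, where the background was 5.21% on each side. Group means of a narrow region differed by a median of 4.33 bases and by 21.3 bases at the 95th percentile. The unadjusted 95% interval of a single region reached a median of 13.3 bases to either side. Smaller shifts were therefore mostly not detectable with 3 animals a group, and larger ones could also go uncalled after adjustment over 3185 regions. At chr13:111713976-111714186, for example, a shift of -29.0 bases (SE 6.45) had a limma adjusted p = 0.786. Without control replicate 3, 2 narrow regions were called: chr11:70287741-70287999 toward higher coordinates, beside 0.0590% of the 3391 regions then fitted, and chr2:33818147-33818396 toward lower ones, beside 0.0295%. Without control replicate 1, chr1:126518137-126518394 was called toward lower coordinates, the 1 call among 3621 regions (0.0276%).

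The largest mean shifts in each direction, among narrow regions whose groups of summits did not overlap, were in weak regions. A large mean shift did not mean a wide gap between the groups. At chr8:50519673-50519948 the lowest control summit lay at base 191 and the highest diabetic summit at base 189. At chr11:70287741-70287999 the summit lay at bases 58, 70 and 168 in the controls and 200, 194 and 180 in the diabetic group, a mean shift of 92.7 bases (SE 28.7, limma adjusted p = 0.786). The summit of control replicate 3 lay nearer to the diabetic ones there, and without it the adjusted p was 0.0304. Its scaled pileups were 4.50 to 10.1. At chr11:66777616-66777861 the summits lay at bases 79, 96 and 123 against 157, 178 and 140, with scaled pileups of 4.73 to 6.34 in the 6 animals. In the other direction, at chr9:17845061-17845320, they lay at bases 182, 106 and 127 against 76, 92 and 69, a shift of -59.3 bases. The other 5 regions named by this rule, chr11:70771732-70771992, chr10:35768523-35768759, chr8:50519673-50519948, chr13:111713976-111714186 and chr10:11122198-11122512, had shifts of 46.7, 41.3, -41.0, -29.0 and -27.7 bases, and none passed the test.

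The distance of narrow regions to their neighbours is given without a test. The gap to the next union region had a median of 6712 bases (95% interval of the median 5619 to 8093). It was 5577 bases (4522 to 7622) for the longer single-summit regions, whose interval overlaps widely, and 4869 bases (4338 to 5509) for the other regions found in every list and 6141 bases (5569 to 6592) for all union regions. Under 1 kb away lay the neighbours of 497 narrow regions (29.7%, Wilson 95% interval 27.5 to 31.9%), and at 100 kb or more those of 252 (15.1%, 13.4 to 16.8%), beside 32.0% and 11.4% of the other regions found in every list. Regions of 1 transcript are not independent, so these intervals are too narrow. To the next region found in all 6 lists the median gap was 20322 bases.

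Of the 497 neighbours under 1 kb away, 303 were found in all 6 lists, 83 (16.7%) were narrow single-summit regions themselves, 181 (36.4%) had several summits in some list and 56 appeared in 1 list only. The closest was 88 bases from chr10:11122198-11122512, whose neighbour at chr10:11122601-11122996 had 1 summit in each of the 6 lists. The summit of that narrow region ranged over 63 bases, at 183, 147 and 139 in the controls and 137, 129 and 120 in the diabetic group. Next were chr3:45969332-45969577 (99 bases), chr1:185098606-185098883 and chr7:58424033-58424288 (101 bases each), with summit ranges of 24, 16 and 9 bases. The median range was 19 bases where the next region lay under 1 kb away and 20 bases where it lay at 100 kb or more, at median scaled pileups of 9.46 and 9.62.

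The most isolated narrow region, chr19:6046715-6046989, had no other region within 3497185 bases. Its scaled pileups were 8.20, 7.94 and 19.5 in the controls and 11.8, 11.4 and 14.0 in the diabetic group, and the summit ranged over 30 bases. The region chrX:49283777-49283939, with no other within 2087708 bases, had 11.7, 12.0 and 22.6 against 14.999, 14.9 and 17.7, and its summit stayed within 4 bases. At chr5:109502451-109502667 the gap was 2176911 bases, the summit range 12 bases and the scaled pileups 6.35, 6.45 and 10.1 against 8.27, 7.93 and 8.13. Control replicate 3 had the highest pileup in these 3 regions. At chr17:67901260-67901518 the gap was 2312557 bases, and the summits lay at bases 100, 118 and 126 in the controls and 142, 153 and 137 in the diabetic group, which do not overlap (shift 29.3 bases, limma adjusted p = 0.786).

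Chromosomes varied in the share of their common regions that were narrow. On chromosome X it was 45 of 130 regions found in all 6 lists (34.6%, Wilson 95% interval 27.0 to 43.1%) and on chromosome 12 it was 78 of 243 (32.1%, 26.5 to 38.2%), beside 23.6% over the genome. The lowest shares were on chromosome 6, with 68 of 380 (17.9%, 14.4 to 22.1%), and chromosome 18, with 45 of 242 (18.6%, 14.2 to 24.0%). These chromosomes were picked after their shares were seen, and presence, length and summit number, which define the share, were used by the rule, so no test is given. Chromosome Y held 1 narrow region, and the unplaced sequences and the mitochondrial genome held 0.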

How the data were processed

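Peak lists of 6 IP libraries (3 control and 3 diabetic animals) were used, and the 6 input libraries entered only through them. The submitters' processing notes list BWA 0.7.12, MACS2 2.1.0, fastp 0.19.11 and CASAVA. Peaks were called for each animal against its own input, per the file headers, at a q cut-off of 0.05, with duplicates kept and an effective genome size of 61.5 Mb. The deposited pileup gives the coverage signal where a summit lies, with the larger library scaled to the smaller. The deposited fold enrichment is a ratio of pileup to local background. That background is the largest of the genome-wide floor and local averages of the input, which include windows of 1 kb and 10 kb. The deposited −log10 p and q columns carry a spreadsheet error in their headers and were told apart by order and size. Fold and −log10 values are the authors' and described or filtered peaks within a list only.

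Lines of 1 region were joined, keeping the summit with the highest pileup, and regions overlapping by at least 1 base were merged. Log2 pileups, centred on each library's median, and summit positions were fitted with limma 3.58.1 (R 4.3.3), without a pseudocount, over 7098 and 3185 regions, with Benjamini-Hochberg adjustment. Both fits were run on simulated data with normal noise and planted differences. Only recovery of the median size of those differences was required there, so the calls made here were not checked by it. Library values were compared with exact permutation tests. The labels do not state that IP samples were separate animals beyond their weights (103.4, 110.5 and 106 g in controls, 100.4, 102.5 and 104 g in diabetic), so p-values measure the spread between these samples. No batch is named in the labels or headers. The background was solved from the caller's definition of fold enrichment, pileup + 1 over background + 1. Python 3.11.15 with numpy 2.4.6, pandas 2.3.3, scipy 1.17.1 and matplotlib 3.10.9 was used.

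The members, tests and alternatives were chosen with earlier results of these data known. Regions named are the 6 with the highest lowest pileup percentile over the lists, the 5 with the smallest and the 5 with the largest summit range, the 4 farthest from and the 4 nearest to another region, the 4 largest non-overlapping differences in each direction of pileup and of summit position, any region past the threshold, and 2 on either side of the length limit. Regions called only under an alternative were named after their values were seen. No genome of the build of the lists was used, so no sequences are printed.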

Additional observations from a re-analysis of the deposited data

How the results depend on the processing

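The narrow regions numbered 960 under a limit of 250 bases and 1750 to 1988 when 1 library was left out. The difference in their pileup level was -0.0103 relative to the median of all regions in the 6 lists and -0.191 to 0.974 on the scaled pileup without 1 library, below 0 without control replicate 1 or 2. Narrow regions called for pileup numbered 2 under a limit of 350 bases (19 over all regions tested) and 5 without centring (36 over all). Without 1 library they numbered 0 to 2 (1 to 16 over all), being 0 without control replicate 2 or diabetic replicate 2. Without diabetic replicate 3 the 1 call was another region, chr4:180846125-180846250. Among members at the background floor, an alternative chosen after seeing the data, 0 were called. The called region chr10:65607887-65608061 lay outside that set, with a background of 1.61 to 2.53 times the floor. The fit was unchanged, so this 0 was fixed by the choice. Calls for summit shift numbered 0 to 2 without 1 library (0 to 3 over all). To the next region in all 6 lists the median gap was 20322 bases. With fewer libraries or other limits the members change by construction; the cause was otherwise not tested. With the replicate block, 1 narrow region was called for pileup (adjusted p = 0.0366) and 0 for summit shift, 13 and 0 over all regions. The exact sign-flip p was 1 for the pileup level (difference 0.261) and 0.5 for the summit distance (smallest possible 0.25). Libraries with the same number had deviations correlated at -0.222, -0.0390 and 0.0376, and control and diabetic libraries with other numbers at -0.166 to 0.173. With 3 animals a group, these values cannot decide whether the numbers pair the animals. The difference in summit distance was below 0 in each alternative run, from -1.33 to -0.417 without 1 library. The called region chr10:65607887-65608061 kept its call in 11 of 14 alternatives, several of which used the same 6 libraries and nearly the same values. It lost the call without control replicate 2, diabetic replicate 2 or diabetic replicate 3. Without control replicate 3 the limma adjusted p was 0.0479. Members near the calling threshold, under a −log10 q of 5, numbered 59, 64 and 5 in control replicates 1, 2 and 3 and 29, 8 and 20 in diabetic replicates 1, 2 and 3. The part of depth in this was not tested.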
